A study of Mus musculus with 2 samples.

Results

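The 4 Hox clusters hold the genes described here, in DNase-seq data from adult mouse frontal cortex. The 38 members are listed Hox genes of the clusters HoxA (10 genes), HoxB (10), HoxC (9) and HoxD (9), found by gene symbol among the 21938 protein-coding genes of the GENCODE M21 annotation. They were chosen by name and cluster, a rule that uses no accessibility value, but with earlier results of these data known. The annotation holds 39 Hox genes in these clusters, and 1 gene of HoxA is not among the 38. In DNase-seq, the enzyme DNase I cuts nuclear DNA where it is exposed, and stretches with many cuts are called as peaks of accessible chromatin. A footprint is a short stretch inside such a region with fewer cuts than its surroundings. The tissue came from female B6CASTF1/J mice, first-generation hybrids of the B6 and CAST strains, at an age of 36 days and with no treatment recorded. The labels give 1 group of 2 biological replicates with separate tissue records but the same donor label. Whether the replicates came from separate animals is therefore not given, and no test between groups was possible.

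Hox genes encode homeodomain transcription factors that give cells their position along the head-to-tail axis of the embryo. Genes of the anterior paralog groups lie at one end of a cluster and are active from the hindbrain backwards, while posterior groups lie at the other end and are active towards the tail. The forebrain, from which the cortex develops, lies in front of the Hox expression domain, and Hox clusters in cells that do not use them are a classic target of Polycomb repression. CTCF, a zinc finger protein that helps to organise chromatin loops, is known to bind between genes of Hox clusters.

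Replicate 1 held 29700 peaks in the shorter of its 2 deposited lists, and replicate 2 held 66512. The authors' peak signal is a density normalized for read depth, and its values came in steps of 0.0118 in replicate 1 and 0.00971 in replicate 2, within 0.02 steps. Where tags are given below, 1 step is taken as 1 tag, which would put the depth at 84.9 M (mega) tags in replicate 1 and 103 M in replicate 2. A promoter peak here is a peak that overlaps the 500 bp to either side of any annotated transcription start site (TSS) of a gene. The 7 cortex markers all had a promoter peak in replicate 2, against 60.0% of all protein-coding genes. In replicate 1 it was 3 of 7, Bcl11b, Neurod6 and Tbr1, against 51.0% of all genes. Emx1 and Fezf2 were among those with a promoter peak in replicate 2 only. The longer list of replicate 1 raised its count to 4 of 7, against 58.2% of all genes. Of the 7 markers, 5 were CpG-rich as defined below. Over all CpG-rich genes the share with a peak of the shorter lists was 82.4% in replicate 1 and 92.1% in replicate 2. The tissue is bulk, so a site open in few cells cannot be told apart from a site weakly open in many.

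The members had almost no accessible promoters, and each cluster held an accessible site between its group 9 gene and the next anterior gene. Both replicates had a promoter peak at 1 member, Hoxa7, and that peak lay at an upstream start of the gene. The peaks between Hoxa9 and Hoxa7, Hoxb9 and Hoxb8, Hoxc9 and Hoxc8, and Hoxd9 and Hoxd8 were called in both replicates. A further shared HoxD peak lay between Hoxd8 and Hoxd4. These 5 sites had the highest signal inside the clusters and, among sites of both shorter lists, the widest footprints. Their sequences are therefore shown. They are the C57BL/6J reference of build GRCm38 (mm10), read 5′ to 3′ on the strand from which the Hox genes are transcribed, and the CAST allele is not analysed here. Capitals mark bases inside footprints of both replicates. The Hoxa9 to Hoxa7 site overlaps an exon, so 30 bases around its widest replicate 2 footprint are given. The other sequences span the replicate 2 peak.

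Hoxa9 to Hoxa7, minus strand, chr6:52221797-52221826: aaaaTTCCAGGAGATGGCagtgtggctcca
Hoxb9 to Hoxb8, plus strand, chr11:96278861-96279060: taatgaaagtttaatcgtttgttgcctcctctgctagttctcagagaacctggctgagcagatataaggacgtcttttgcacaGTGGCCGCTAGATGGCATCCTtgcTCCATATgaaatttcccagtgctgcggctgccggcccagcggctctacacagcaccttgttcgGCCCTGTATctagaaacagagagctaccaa
Hoxc9 to Hoxc8, plus strand, chr15:102987501-102987700: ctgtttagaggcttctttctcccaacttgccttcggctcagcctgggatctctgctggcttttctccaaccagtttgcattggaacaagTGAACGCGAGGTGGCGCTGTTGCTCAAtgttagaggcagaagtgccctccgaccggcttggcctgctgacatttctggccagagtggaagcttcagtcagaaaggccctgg
Hoxd9 to Hoxd8, plus strand, chr2:74702301-74702500: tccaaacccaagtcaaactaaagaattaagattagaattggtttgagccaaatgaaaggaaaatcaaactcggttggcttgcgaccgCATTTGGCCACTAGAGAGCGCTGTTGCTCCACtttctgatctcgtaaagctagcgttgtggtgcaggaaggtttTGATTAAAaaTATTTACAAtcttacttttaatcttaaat
Hoxd8 to Hoxd4, plus strand, chr2:74715841-74716040: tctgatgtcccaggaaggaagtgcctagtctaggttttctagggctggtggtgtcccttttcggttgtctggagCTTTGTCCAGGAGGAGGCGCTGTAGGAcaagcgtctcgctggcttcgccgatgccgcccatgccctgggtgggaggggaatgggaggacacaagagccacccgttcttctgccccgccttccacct

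The first question was how many Hox promoters were called accessible. In replicate 1, 1 of 38 members had a promoter peak (2.63%, exact 95% Clopper-Pearson interval 0.0666 to 13.8%), against 51.0% of all 21938 protein-coding genes. In replicate 2 it was again 1 of 38, against 60.0% of all genes. For a peak in both replicates the count was 1 of 38, against 50.8%. The member was Hoxa7 in each case. Intervals here cover counting error only, and neighbouring genes of a cluster are not independent draws. The longer peak list, which holds weaker peaks too, gave 1 of 38 members in replicate 1 (58.2% of all genes), 3 of 38 in replicate 2 (64.4%) and 1 of 38 in both (57.9%). The members added by the longer list of replicate 2 were Hoxc5 and Hoxd1.

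Promoters rich in CpG dinucleotides are accessible in most tissues, and Hox promoters are mostly of this kind. With a GC content of at least 50% and an observed over expected CpG ratio of at least 0.6 in a TSS window, 28 of 38 members (73.7%) were CpG-rich, against 51.2% of all genes. The CpG ratio of the members had a median of 0.728 (range 0.399 to 1.00), against a median of 0.624 over all genes. Hoxd8, a central-group gene, had the highest ratio at 1.00, and Hoxb2, an anterior-group gene of the hindbrain, had the lowest at 0.399. Of the 28 CpG-rich members, 1 had a peak in each replicate. Among the 11236 CpG-rich genes the share was 82.4% in replicate 1 and 92.1% in replicate 2. Hoxd8, Hoxa5, Hoxa13, Hoxa4, Hoxd11 and Hoxd13 all had CpG ratios above 0.9 and no promoter peak in either replicate.

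The cleavage table, which lists intervals of the genome with a false discovery rate (FDR) for their cut rate up to 0.05, gives a more lenient view. At least 1 base with an FDR of 0.05 or less lay in a TSS window of 1 of 38 members in replicate 1, against 59.4% of all genes, and of 3 of 38 in replicate 2, against 65.3%. At an FDR of 0.001 or less the counts were 1 of 38 (52.3% of all genes) and 1 of 38 (60.8%). Footprints lay in a TSS window of 1 of 38 members in replicate 1 (55.5% of all genes) and 3 of 38 in replicate 2 (62.3%). Thus 35 of 38 members had no listed base around any annotated TSS in either replicate. The table ends at 0.05, so cutting above that FDR is not seen here.

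By position in the cluster, the anterior genes (groups 1 to 4, 11 members) had no peak of the shorter list in either replicate. They include Hoxa2, Hoxb2 and Hoxb1, which pattern hindbrain segments, and Hoxa4, Hoxb4, Hoxc4 and Hoxd4, all with no listed base in either replicate. Hoxd1, another anterior gene, had 184 bases at an FDR of 0.05 or less and 2 footprints in replicate 2, with a lowest FDR of 5.72e-03, and nothing in replicate 1. Its peak of the longer list, chr2:74762841-74763011 with a signal of 0.738 in replicate 2, also covers the start of Haglr, a long noncoding RNA transcribed in the opposite direction. Reads of that peak cannot be assigned to either start.

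The central genes (groups 5 to 8, 11 members) held Hoxa7 and Hoxc5. Hoxa7 had 358 bases at an FDR of 0.05 or less and 6 footprints in replicate 1, and 511 bases and 2 footprints in replicate 2. Its lowest FDR was 2.86e-07 in replicate 1 and 1.39e-10 in replicate 2, so it was called in both libraries by every limit used. Hoxc5 had no listed base in replicate 1. In replicate 2 it had 152 bases and 2 footprints, with a lowest FDR of 7.30e-03. The other 9 central genes, Hoxa5, Hoxa6, Hoxb5, Hoxb6, Hoxb7, Hoxb8, Hoxc6, Hoxc8 and Hoxd8, had no listed base in either replicate.

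The posterior genes (groups 9 to 13, 16 members) had no listed base around a TSS in either replicate. They include Hoxa13 and Hoxd13, which pattern the ends of the limbs, as well as Hoxa10, Hoxa11, Hoxd10, Hoxd11 and Hoxd12, and the whole of Hoxc9 to Hoxc13. All 10 HoxB members, from Hoxb1 to Hoxb13, were likewise without a listed base.

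The Hoxa7 call rests on 1 of the 5 annotated starts of the gene. The start at chr6 position 52221854 (minus strand), of a transcript whose coding end is not annotated, lay inside the peak. The other Hoxa7 starts were 1288, 2970, 4176 and 4229 bp from the nearest peak of any list, and the one with a consensus coding sequence (CCDS) was 4176 bp away. With TSSs of CCDS transcripts alone, a setting added after the data were seen, 0 of 37 members with such a transcript had a peak in replicate 1 (exact 95% interval 0 to 9.49%), against 51.3% of 20331 genes. In replicate 2 it was 0 of 37 against 60.4%. Hoxa13 has no CCDS transcript in the annotation. The Hoxc5 and Hoxd1 peaks of the longer list were at CCDS starts, 19 bp away and overlapping.

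**Figure D1:**
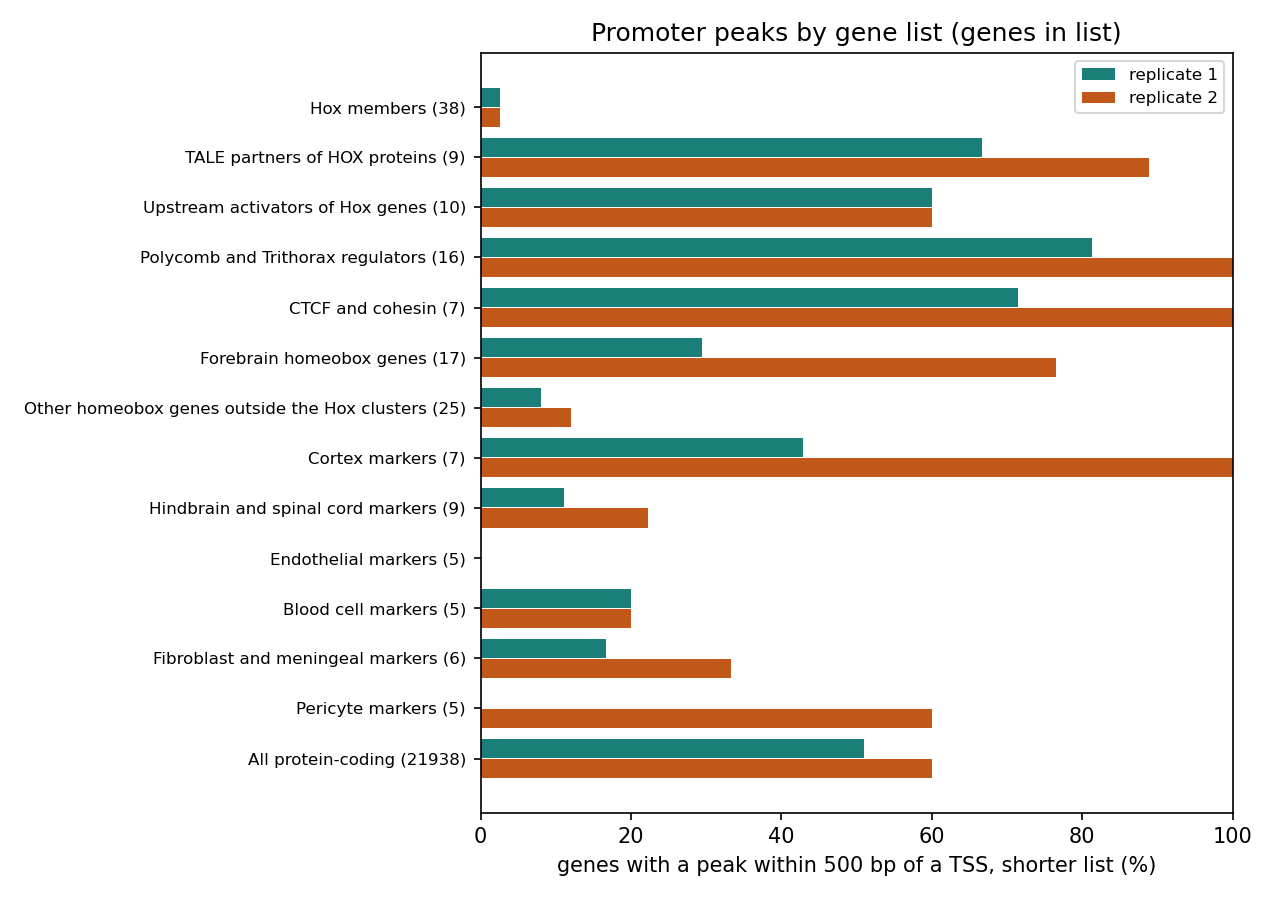
Bars give the percentage of genes in each list with a peak of the shorter list within 500 bp of a TSS, in replicate 1 and replicate 2; the number of genes is in brackets. The Hox members are at 2.63% in both replicates and all protein-coding genes at 51.0% and 60.0%.

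Low counts of promoter peaks were also found outside the Hox clusters. Of 25 other homeobox genes outside the clusters, mostly regulators of other tissues, 2 had a promoter peak in replicate 1, 3 in replicate 2 and 1 in both. In the longer lists they stood at 6 and 11 of 25, beside 1 and 3 of 38 Hox members. Alx4, Barx1, En1 and En2 had none, Tlx2 had one in both, and Tlx3 in replicate 1 only. Homeobox genes of the forebrain gave 5 of 17 in replicate 1, 13 of 17 in replicate 2 and 5 of 17 in both. Cux1, Pou3f1, Pou3f2 and Pou3f3 had a peak in both, Cux2, Dlx2 and Dlx5 in replicate 2 only, and Dlx1, Dlx6, Emx2 and Lhx6 in neither. Markers of hindbrain and spinal cord, where Hox genes are used, had a promoter peak in 1 and 2 of 9 cases, and En1, En2, Gbx2 and Isl1 had none. In the longer lists their count was 2 and 5 of 9. The counts in the shorter lists stand beside 51.0% and 60.0% of all genes, and those in the longer lists beside 58.2% and 64.4%. Of the other homeobox, forebrain homeobox, and hindbrain and spinal cord genes, 23 of 25, 16 of 17 and 8 of 9 were CpG-rich. Over all CpG-rich genes the share with a peak of the shorter lists was 82.4% and 92.1%.

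Genes whose products work with or upon the Hox genes are mostly CpG-rich, at 7 of 9 TALE genes, 9 of 10 upstream activators, 15 of 16 Polycomb and Trithorax regulators and 7 of 7 CTCF and cohesin genes. Of the TALE homeodomain proteins, which bind DNA together with HOX proteins, 6 of 9 had a promoter peak in replicate 1, 8 in replicate 2 and 6 in both. Meis2, Pbx3, Pbx4, Pknox1 and Pknox2 were among those that had it in both, Meis1 and Pbx2 in replicate 2 only, and Meis3 in neither. Of 10 upstream activators, 6 had a peak in each replicate and in both, among them Egr2, Rarb, Rarg, Rxra and Rxrb. The caudal-type activators Cdx1, Cdx2 and Cdx4 and the retinoic acid receptor gene Rara had none. Polycomb and Trithorax regulators, which keep Hox genes silent or active, had a peak in 13 of 16 cases in replicate 1, 16 of 16 in replicate 2 and 13 in both. Bmi1, Cbx7 and Cbx8 were covered in both, and Cbx2, Kdm6b and Ring1 in replicate 2 only. Of the CTCF and cohesin genes, Nipbl, Rad21, Smc1a, Smc3 and Stag1 had a peak in both replicates, and Ctcf and Stag2 in replicate 2 only. The counts of these lists stand beside 51.0% and 60.0% of all genes and 82.4% and 92.1% of CpG-rich genes. They carry no test, and nothing particular to the lists is read from them.

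Counts for markers of other cells in the tissue stand beside 51.0% and 60.0% of all genes with a promoter peak. Endothelial markers (Cdh5, Cldn5, Flt1, Pecam1, Tek) had 0 of 5 in either replicate, and blood cell markers 1 of 5 in each, Tal1, with Cd3e, Gata1, Ptprc and Spi1 at none. Fibroblast and meningeal markers had 1 and 2 of 6, Col1a1 in both and Foxc1 in replicate 2 only, with Col1a2, Dcn, Foxd1 and Lum at none. Pericyte markers had 0 and 3 of 5, with Kcnj8, Rgs5 and Tbx18 in replicate 2 and Abcc9 and Pdgfrb at none. The replicate 2 count of pericyte markers, 60%, equals the share of all genes. In the longer lists the counts were 0 and 0 for endothelial, 1 and 1 for blood cell, 2 and 3 for fibroblast and meningeal, and 2 and 4 for pericyte markers. In the same order, 1 of 5, 1 of 5, 2 of 6 and 2 of 5 were CpG-rich. The part of these cells in the Hox peaks was not tested.

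The second question was where the accessible sites inside the clusters lay. The clusters span 105.3 kb (HoxA, chr6:52155590-52260880), 173.9 kb (HoxB, chr11:96194316-96368256), 115.8 kb (HoxC, chr15:102921103-103036852) and 96.8 kb (HoxD, chr2:74668310-74765142), 491.8 kb in all. Each cluster was taken between its outermost annotated Hox genes. The shorter lists held 6 peaks inside the clusters in replicate 1 and 7 in replicate 2, and 6 sites were called in both. From the TSS of a member to the nearest shared site the distance had a median of 20.1 kb, from 0.043 kb for Hoxa7 to 86.8 kb for Hoxb1.

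**Figure D2:**
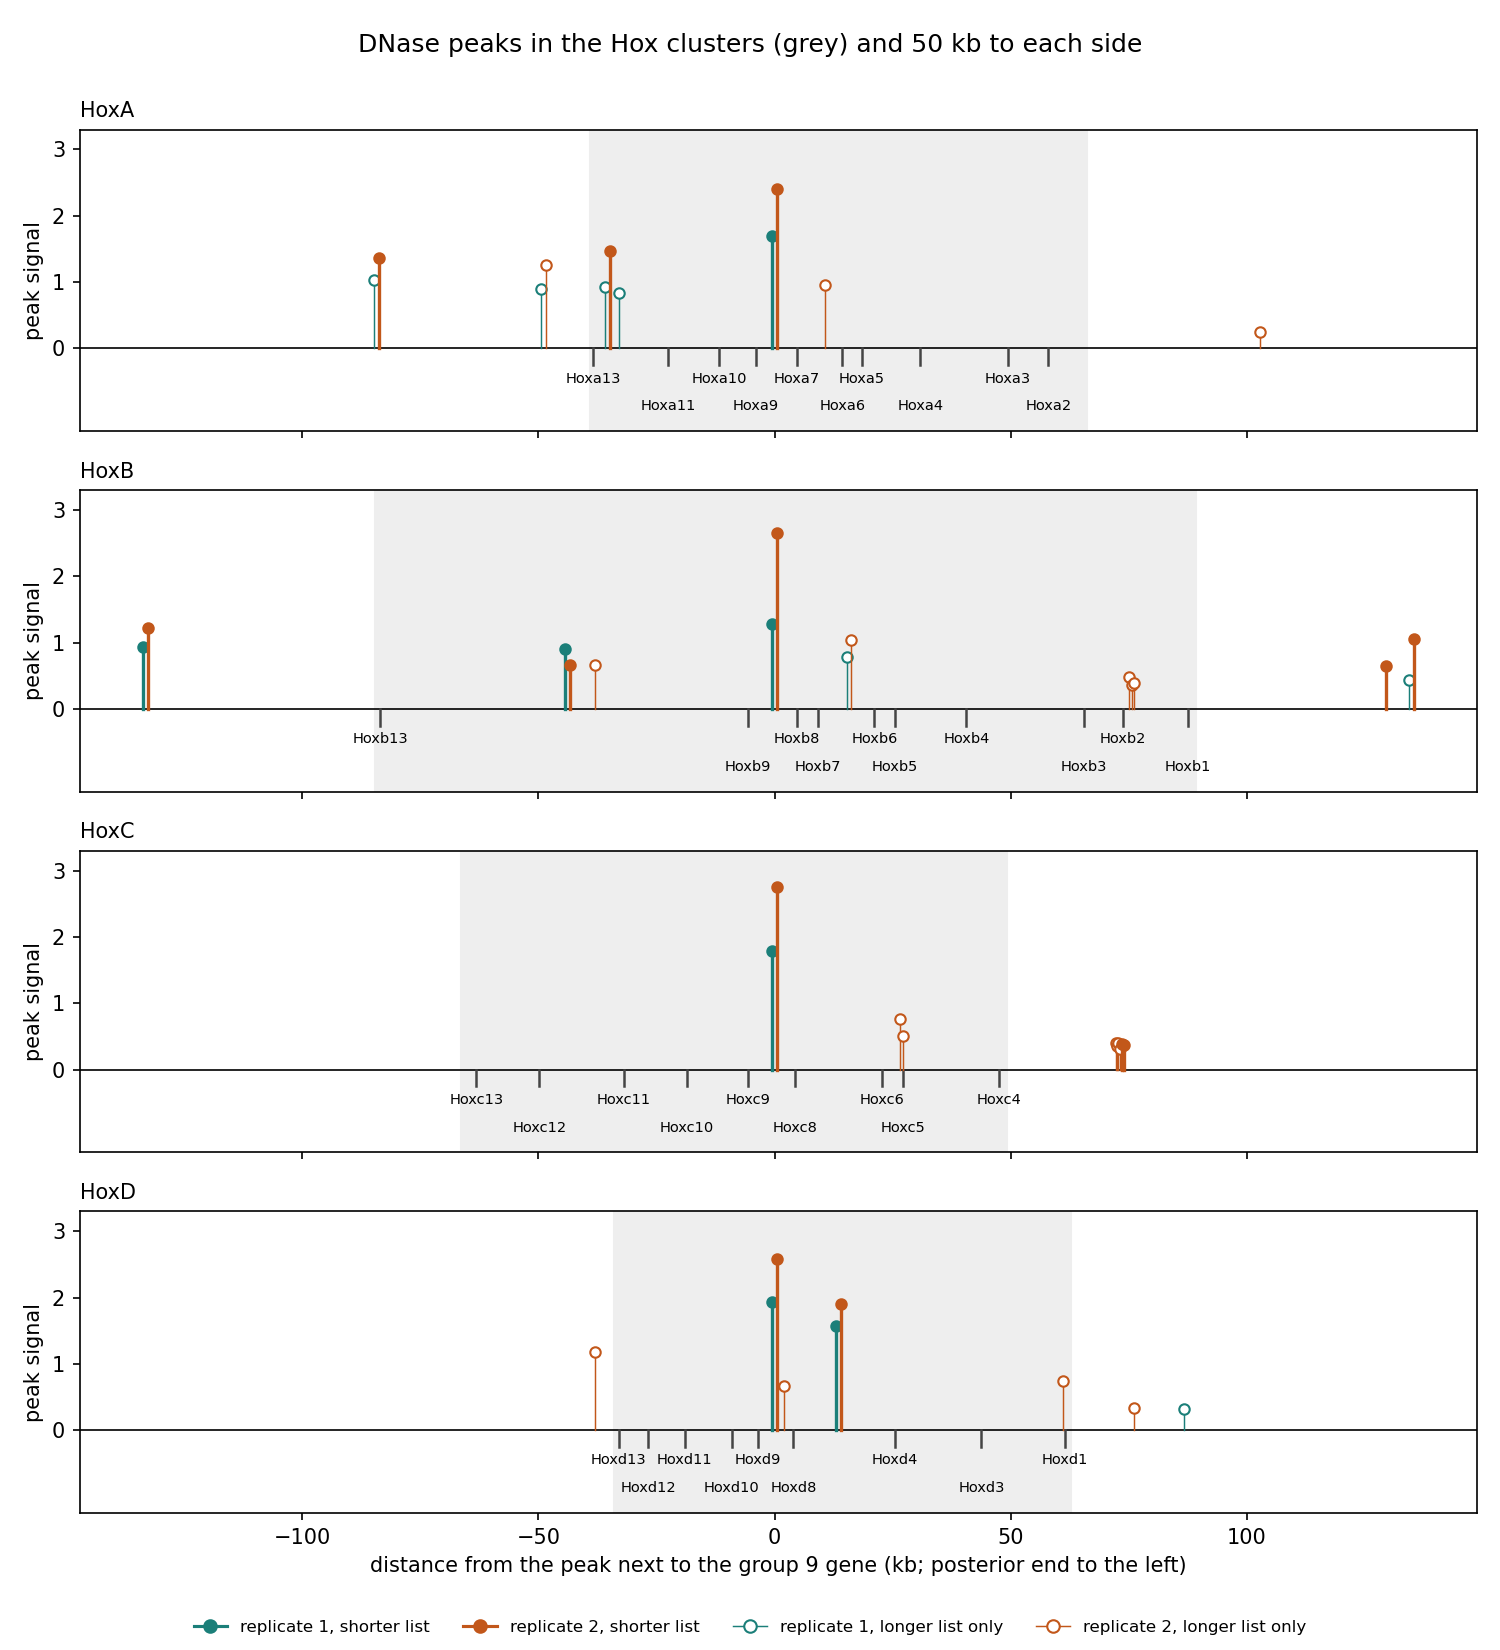
Peaks in each Hox cluster (grey) and 50 kb to each side. The x axis is the distance in kb from the peak between the group 9 gene and the next anterior gene, with the posterior end to the left. Gene ticks mark the middle of the coding part. Stems give the authors' peak signal, and the stems of the replicates are set 1 kb apart for visibility. A filled pair stands at 0 in all 4 clusters, with signals of 1.28 to 1.93 in replicate 1 and 2.40 to 2.76 in replicate 2.

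The Hoxa9 to Hoxa7 site (chr6:52221681-52221940) covers an exon at the upstream start of Hoxa7. Its signal was 1.70 in replicate 1 and 2.40 in replicate 2, or 144 and 247 tags. That is above 63.9% and 79.6% of the peaks in the respective lists. The Hoxb9 to Hoxb8 site (chr11:96278861-96279060) is intergenic, 2944 bp from the nearest Hoxb8 start. Its signal was 1.28 and 2.65, or 109 and 273 tags. It stood above 47.5% and 82.3% of the peaks of its lists, the largest rise in rank among the shared sites.

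The Hoxc9 to Hoxc8 site (chr15:102987501-102987700) lies 3006 bp from a Hoxc8 start and in an intron of the long Hoxc5 transcript. Its signal was 1.79 in replicate 1 and 2.76 in replicate 2, the highest of the clusters in the second library. The Hoxd9 to Hoxd8 site (chr2:74702301-74702500) is intergenic, and its signal of 1.93 in replicate 1 was the highest of the clusters there, with 2.58 in replicate 2. The Hoxd8 to Hoxd4 site (chr2:74715821-74716040) lies in an exon of Hoxd3os1, an antisense noncoding RNA, and in introns of long Hoxd3 and Hoxd4 transcripts. Its signal was 1.57 and 1.90. The sixth shared site, between Hoxb13 and Hoxb9 (chr11:96235001-96235200), was weaker, with 0.907 and 0.660 and above 24.0% and 18.7% of its lists. It is intergenic, about midway across the long gap that separates Hoxb13 from the rest of HoxB, 39.7 kb from the coding part of Hoxb13 and 38.1 kb from that of Hoxb9.

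The position between the group 9 gene and the next anterior gene was noticed in these data and is given as a description. The stretch from the middle of the coding part of the group 9 gene to that of the next anterior gene held exactly 1 shared peak in each cluster. These stretches measure 8.55 kb in HoxA, 10.5 kb in HoxB, 9.93 kb in HoxC and 7.51 kb in HoxD. Together they make up 36.5 kb, or 7.41% of the cluster length, and hold 4 of the 6 shared peaks. By nearest TSS these 4 peaks were closer to the next anterior gene than to the group 9 gene. For Hoxa7, Hoxb8, Hoxc8 and Hoxd8 the distances were 0.043, 2.94, 3.01 and 2.21 kb. For Hoxa9, Hoxb9, Hoxc9 and Hoxd9 they were 4.38, 7.44, 10.6 and 4.67 kb. The genes of a cluster share a strand, so the TSS distance to the group 9 gene includes its body, which favours this order. From the middle of the coding part the order was mixed. The HoxA and HoxD peaks were closer to the group 9 gene, at 3.91 against 4.65 kb and 3.53 against 3.98 kb. The HoxB and HoxC peaks were closer to the next anterior gene, at 4.75 against 5.72 kb and 4.25 against 5.68 kb.

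The replicates agreed on these sites but not on their height. The log2 ratio of signal in replicate 2 to replicate 1 was 0.50 at Hoxa9 to Hoxa7, 1.05 at Hoxb9 to Hoxb8, 0.62 at Hoxc9 to Hoxc8, 0.42 at Hoxd9 to Hoxd8 and 0.28 at Hoxd8 to Hoxd4. At Hoxb13 to Hoxb9 it was -0.46, so this site alone among the 6 was lower in replicate 2. Over all 27469 shared peaks the median was 0.69 (quartiles 0.46 and 0.91), and 96.5% were higher in replicate 2. Of the 6 sites, Hoxc9 to Hoxc8 and Hoxa9 to Hoxa7 lay between those quartiles, 1 above and 3 below. With 1 value per library these ratios carry no error of their own.

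Further sites were called in 1 replicate or in the longer lists only. The seventh replicate 2 peak of the shorter list, chr6:52257077-52257240 with a signal of 1.47, lies in an exon of the uncharacterised transcript 9530018H14Rik near Hoxa13. In replicate 1 it was in the longer list only, with a signal of 0.931. The longer lists held 9 peaks inside the clusters in replicate 1 and 17 in replicate 2. Those found only in the longer list of replicate 2 include a peak in an exon of Hoxb2 (chr11:96353341-96353689, signal 0.485) and peaks beside the start of Hoxb3os, antisense to Hoxb3. Of the 7 microRNA genes inside the clusters none had a promoter peak in any list, against 9.36% and 13.0% of all 2202 microRNA genes in the longer lists. Of 9 antisense genes 1, Hoxd3os1, had a peak of the shorter list in both replicates, against 19.9% of 2959.

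The third question was whether the clusters were more accessible than the 50 kb to each side of them, 400 kb in all. In replicate 1 the clusters held 6 peaks, 1.22 per 100 kb (95% Poisson interval 0.448 to 2.66), and the flanks 1 peak, 0.25 per 100 kb. The ratio was 4.88, with an exact interval of 0.592 to 225 that includes 1. In replicate 2 the clusters held 7 peaks, 1.42 per 100 kb (0.572 to 2.93), and the flanks 6, 1.50 per 100 kb, a ratio of 0.949 (0.273 to 3.42). No difference between clusters and flanks was detectable at these counts, and over both replicates the ratio was 2.91 ± 2.78 (SD, n = 2). The whole genome had 1.09 and 2.44 peaks per 100 kb. In the longer lists the ratios were 1.46 and 0.988. The flank peak shared by both replicates lay in an intron of Ttll6 beside HoxB (chr11:96145681-96145880, signals 0.931 and 1.21). In replicate 2 the other flank peaks lay 7347 bp from Evx1, a homeobox gene next to HoxA, at 2 sites beyond Hoxb1, and at 2 sites beside 5730585A16Rik beyond HoxC. Their signals were 1.36 near Evx1, 0.641 and 1.06 beyond Hoxb1, and 0.379 and 0.369 beyond HoxC. The 2 beyond HoxC stood above only 2.34% and 2.07% of the shorter list and were in neither list of replicate 1.

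**Figure D3:**
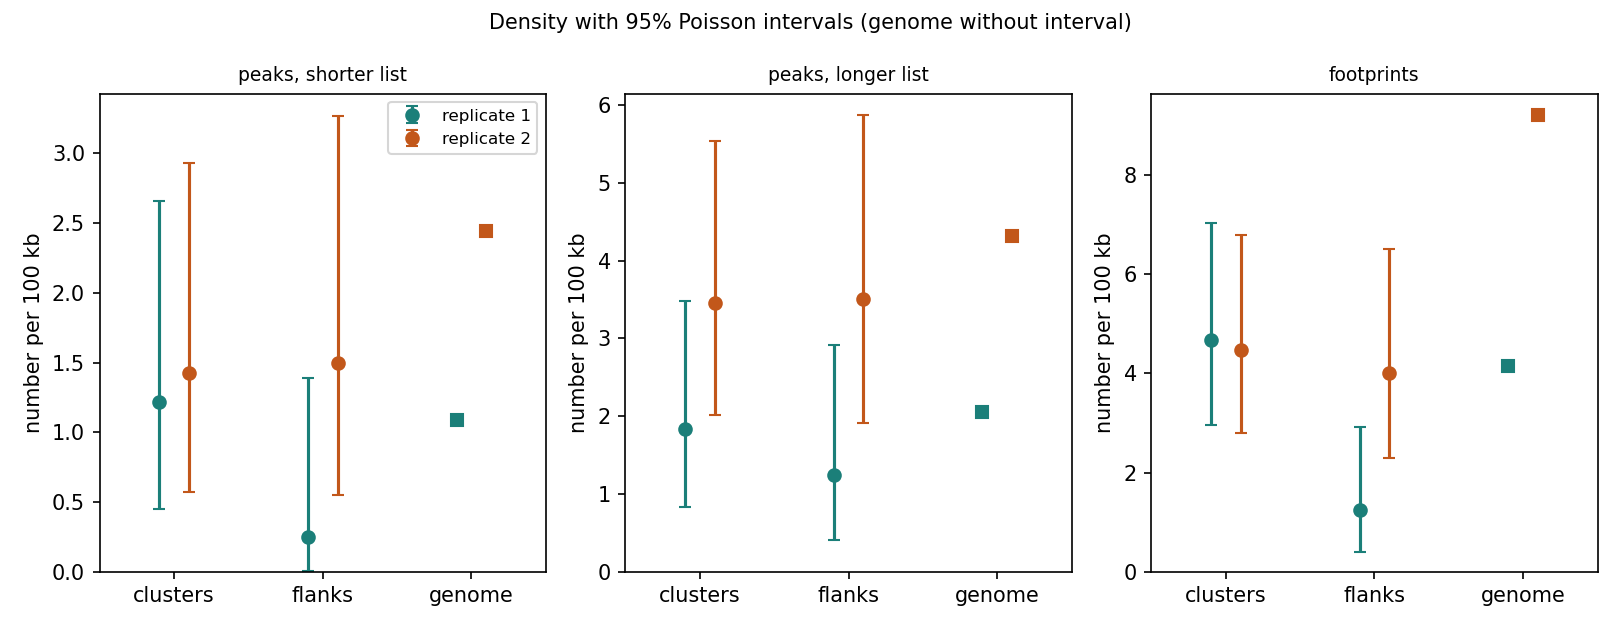
Number per 100 kb of peaks in the shorter and longer lists and of footprints, inside the clusters, in the flanks of 50 kb to each side and in the genome, for each replicate. Bars are 95% Poisson intervals and the genome value has none; for peaks of the shorter list the clusters are at 1.22 and 1.42, and the flanks at 0.25 and 1.50.

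Footprints gave 23 inside against 5 in the flanks in replicate 1, a ratio of 3.74 (exact interval 1.39 to 12.6), and 22 against 16 in replicate 2, a ratio of 1.12 (0.561 to 2.28). Footprints of 1 peak are not independent, so these intervals are too narrow. All footprints inside the clusters lay in peaks of the longer lists, and 14 and 13 of them in peaks of the shorter lists. Bases at an FDR of 0.05 or less made up 0.422% of the clusters and 0.176% of the flanks in replicate 1, a ratio of 2.40. In replicate 2 they made up 0.690% and 0.931%, a ratio of 0.741, on the other side of 1. The clusters differed in replicate 2, with ratios of 1.09 for HoxA, 0.711 for HoxB, 0.249 for HoxC and 2.41 for HoxD, and the HoxC flanks held 1620 of the 3726 flank bases. In replicate 1 the ratio was 1.78 for HoxA, 1.12 for HoxB and 8.07 for HoxD, and the HoxC flanks held 0 bases. The genome had 0.669% and 1.51%. The ratio over both replicates was 1.57 ± 1.17 (SD, n = 2), so the spread between replicates was wider than the difference from 1. The higher ratios of replicate 1 come with fewer calls in its flanks, 704 bases against 3726 in replicate 2, and change with the width of the flanks: at 100 kb to each side the footprint ratio was 1.70 (0.906 to 3.20) in replicate 1 and 0.534 (0.314 to 0.876) in replicate 2.

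The footprints of the 5 sites printed above, which were chosen in part for their width, are given as a description. The widest footprint measured 31 bp in replicate 1 and 27 bp in replicate 2 at Hoxc9 to Hoxc8, with 27 bases in common. At Hoxd9 to Hoxd8 it was 33 and 36 bp, at Hoxd8 to Hoxd4 30 and 29 bp, and at Hoxb9 to Hoxb8 21 and 38 bp. At Hoxa9 to Hoxa7 it was 16 bp in replicate 1 and 26 bp in replicate 2 at neighbouring positions that did not overlap, and a 14 bp footprint of replicate 1 lay within the 26 bp one. At the 2 weaker sites shared by the replicates it was 8 and 11 bp at Hoxb13 to Hoxb9 and 10 and 11 bp at the Ttll6 intron.

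**Figure D4:**
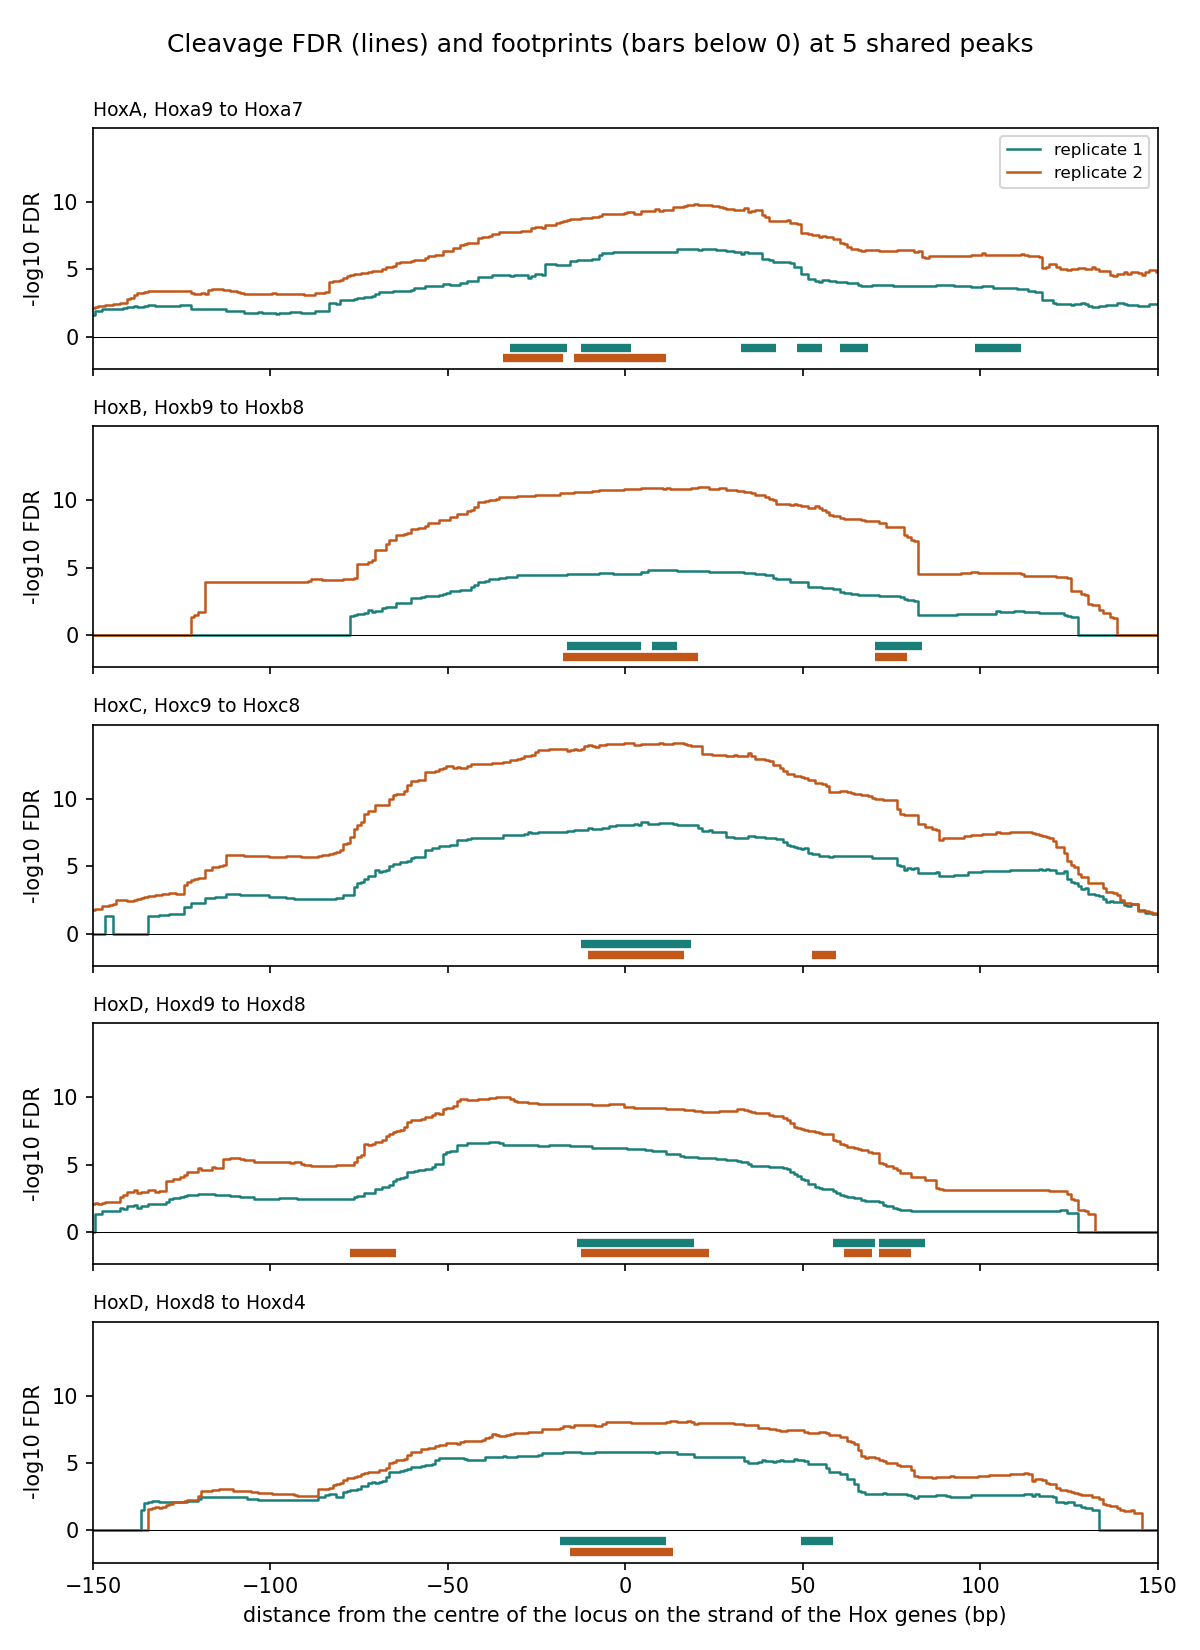
Lines give -log10 of the cleavage FDR per base (0 where no value is listed) against the distance in bp from the centre of the site on the Hox strand, and bars below 0 mark the authors' footprints, in replicate 1 and replicate 2. The highest values are 6.54 and 9.86 at Hoxa9 to Hoxa7, 4.85 and 10.98 at Hoxb9 to Hoxb8, 8.27 and 14.16 at Hoxc9 to Hoxc8, 6.64 and 9.99 at Hoxd9 to Hoxd8 and 5.85 and 8.10 at Hoxd8 to Hoxd4.

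The fourth question was which known motifs the cluster peaks hold, in the 200 bp around each peak centre and on both strands. The 12-base CTCF consensus had no exact match in the 6 peaks of replicate 1 or the 7 of replicate 2, against 8.13% and 6.23% of all peaks. With 1 mismatch it matched 3 of 6 and 3 of 7 (21.5% and 17.6% of all peaks, and 39.9% and 23.4% of peaks over 1000 bp from any TSS). With 2 mismatches, a setting added after the data were seen, it matched 6 of 6 and 7 of 7 (43.3% and 38.9% of all peaks, and 60.1% and 43.3% of those over 1000 bp from any TSS). In the longer lists 2 mismatches gave 9 of 9 and 10 of 17 cluster peaks. The sites with 1 mismatch were Hoxa9 to Hoxa7, Hoxb9 to Hoxb8 and Hoxd9 to Hoxd8. Their closest match, and that of Hoxd8 to Hoxd4 with 2 mismatches, lay on the strand of the Hox genes and wholly inside a footprint of each replicate. At Hoxc9 to Hoxc8 and Hoxb13 to Hoxb9 the closest match had 2 mismatches and lay on the opposite strand, and at Hoxc9 to Hoxc8 no footprint overlapped it. Only the closest match of each site was placed, so matches with more mismatches inside the Hoxc9 to Hoxc8 footprints were not looked for. That site is therefore not shown to lack a CTCF-like sequence in its footprints, or to differ in this from the other sites.

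The other motifs searched were TGATNNAT, bound by HOX proteins with PBX partners, the REST site part TTCAGCACC, and the retinoic acid response element of the DR5 type. None was found in a cluster peak of the shorter lists. Over all peaks of these lists in replicates 1 and 2 the shares were 3.27% and 4.63% for TGATNNAT, 0.380% and 0.376% for TTCAGCACC and 0.0303% and 0.0271% for the DR5 element. In the longer lists TGATNNAT was found in 1 of 9 and 0 of 17 cluster peaks, against 4.27% and 5.47% of all peaks. A match, or its absence from a window, says nothing of binding.

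Words shared between different sites were also listed. Pairs of the 6 shared sites were compared on the Hox strand over the whole replicate 2 peak, footprinted or not. For Hoxa9 to Hoxa7 only the 30 bases shown were used, so the sites were not compared over equal lengths. The longest word shared by a pair was GCGCTGTTGCTC, 12 bases found in the capitals of both Hoxc9 to Hoxc8 and Hoxd9 to Hoxd8. It occurred in 5 of 29700 peaks of replicate 1 and 8 of 66512 of replicate 2, these sites included. The longest word in the capitals of Hoxc9 to Hoxc8, Hoxd9 to Hoxd8 and Hoxd8 to Hoxd4 was GCGCTGT, present in 4.34% and 3.21% of all peaks. At Hoxd9 to Hoxd8 and Hoxd8 to Hoxd4 this word overlaps the end of the closest CTCF match, so it is not separate from that match. For Hoxc9 to Hoxc8 an overlap of the word with a CTCF match of more mismatches was not looked for. No word of 4 or more bases was common to the capitals of all 5 printed sites. These words were picked after the sequences were seen and carry no test.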

How the data were processed

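DNase-seq of frontal cortex was analysed from files the authors deposited for 2 replicates of 1 group, on build mm10 per the labels. For each library they hold 2 peak lists with a depth-normalized signal, a footprint list whose deposited score is 0.01 in every row, and a cleavage table whose deposited p-value column is an FDR that ends at 0.05. Peaks were called per library, not on pooled libraries. For the aligner, the callers and their versions, nothing is given in the sources used here. Both lists fit the rule for the main list equally; the one with fewer peaks was taken after the files were seen.

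Genes came from GENCODE M21 and sequence from GRCm38. Positions were compared with Python 3.11.15, numpy 2.4.6, scipy 1.17.1, pysam 0.24.0 and bedtools 2.31.1, with an overlap of at least 1 bp; peaks were assigned to clusters or flanks by midpoint. A ratio of densities was called where its exact conditional binomial interval left out 1. Members and gene lists were chosen with earlier results of these data known. Named genes were all 38 members, genes with a peak in a cluster or flank, and of each list all members or, beyond 10, the first 4 by symbol in each class; a few of these are not reported here. The code was tested on simulated peaks and motifs. Alternatives were TSS windows, flank widths, the longer list, other cluster limits, FDR limits and each replicate alone.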

Additional observations from a re-analysis of the deposited data

How the results depend on the processing

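Of the promoter counts, the values under TSS windows of 250 and 1000 bp, protein-coding transcripts, the upper 50% of peaks by signal and at least 50% of the peak in the window all stayed at 1, Hoxa7. Replicate 2 rose to 3 with the longer list, and CCDS starts gave 0 in replicate 1, 0 in replicate 2 and 0 in both; leaving out either replicate gave 1 to 1.

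The density ratios depended on the flanks and on the replicate. In replicate 2 the peak ratio turned to 1.42 with flanks of 25 kb and to 2.44 with the upper 50% by signal. It fell to 0.474 with flanks of 100 kb and to 0.542 for peaks over 1000 bp from any TSS, all with intervals that include 1. The footprint ratio of replicate 2 fell to 0.534 with flanks of 100 kb. Its interval of 0.314 to 0.876 left out 1, so it was called below 1, though intervals of footprints are too narrow. In replicate 1 the peak ratio fell from 4.88 to 1.95 with flanks of 100 kb and to 1.46 with the longer list, all with intervals that include 1, and the footprint ratio lost its call at 1.70 with flanks of 100 kb. The ratio of bases moved in replicate 1 to 5.02 (25 kb), 0.983 (100 kb) and 4.82 (FDR of 0.001), and in replicate 2 turned to 1.11 (FDR of 0.001). The causes were not tested. Leaving out 1 replicate gave 0.949 to 4.88 for the mean peak ratio and 1.12 to 3.74 for the mean footprint ratio. In replicate 1 flanks of 25 kb and the higher 50% of peaks left 0 flank peaks, and no ratio. CTCF matches moved from 0 to 3 and 3 with 1 mismatch and to 6 and 7 with 2. No paired analysis was possible because there is 1 group. Counts of 7 or fewer peaks inside the clusters limit the peak ratios of the shorter lists.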
